A study of Mus musculus with 4 samples.

Results

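The genes described here are 8 fatty acid oxidation genes and targets of PPAR-alpha in mouse liver: Fabp1, Fabp2, Cpt1a, Acadm, Acaa2, Ehhadh, Acaa1b and Vnn1. They were taken by symbol from the 19465 genes of the count matrices, and all 8 were found. The Visium assay, in which RNA is read out on an array of spots with known positions, was run on fixed and paraffin-embedded liver. There were 4 sections, each from its own mouse by the series' design text. The healthy section (n = 1) came from an HK2fl/fl mouse given olive oil. The fibrotic sections (n = 2) came from HK2fl/fl mice given carbon tetrachloride (CCl4), a toxin that hepatocytes around the central vein turn into a radical. Hk2 deletion was represented by 1 fibrotic section, from a PDGFRBcreERT2/Hk2fl/fl mouse that also received CCl4 and in which a tamoxifen-activated Cre under the Pdgfrb promoter removes floxed Hk2 from stellate cells and other mural cells. Hepatocytes, in which most of the 8 genes are chiefly expressed, are not the target of that Cre. All mice are labelled as males aged 5 months, and all received tamoxifen at 75 mg/kg for 5 days, followed by a wait of 2 weeks. CCl4 was injected at 1 µL/g, 2 times a week. Its duration is 6 weeks in the series' design and 4 or 6 weeks in the sample protocol.

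PPAR-alpha is a nuclear receptor that pairs with RXR and, when bound by fatty acids, switches on the genes that take up, activate and burn them. Long-chain fatty acids enter mitochondria through the carnitine shuttle, whose gate is CPT1A, and are shortened there by dehydrogenases, hydratases and thiolases. Peroxisomes hold a parallel set of enzymes for very long and branched chains. In the healthy lobule, fatty acid oxidation is classically placed toward the portal side, where oxygen is richest, and detoxification by cytochrome P450 toward the central vein.

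The genes lie on 7 chromosomes of the GRCm38.p6 assembly, from which RefSeq's gene coordinates were taken. Fabp1 (ENSMUSG00000054422) is on chromosome 6 from 71199879 to 71205034, and Fabp2 (ENSMUSG00000023057) on chromosome 3 from 122895072 to 122899506. Cpt1a (ENSMUSG00000024900) is on chromosome 19 from 3322326 to 3385735, Acadm (ENSMUSG00000062908) on chromosome 3 from 153922353 to 153944643, and Acaa2 (ENSMUSG00000036880) on chromosome 18 from 74779212 to 74806207. Ehhadh (ENSMUSG00000022853) is on chromosome 16 from 21761285 to 21787834, Acaa1b (ENSMUSG00000010651) on chromosome 9 from 119148043 to 119157093, and Vnn1 (ENSMUSG00000037440) on chromosome 10 from 23894688 to 23905344. Acaa1b has a near-identical copy, Acaa1a (chromosome 9, 119341028 to 119350296), so reads of the pair could have been split between them and the values of both are uncertain.

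The sections held 2577 to 4134 spots, and their totals ran from 40585039 to 67479047 UMIs (unique molecular identifiers, each counted as 1 captured molecule), with medians of 13665 to 15588 UMIs per spot. All 13 markers of a hepatocyte list (Alb, Apob, Ttr and others) were detected in every section, at a summed level of 134130.1 to 198259 CPM (UMIs per 1000000 UMIs of the section), as the liver label requires. Fibrotic replicate 1 stood apart from the other sections and from its label: the Y-linked transcript Eif2s3y had 0.578 CPM in it, whereas the other sections (healthy, fibrotic replicate 2, Hk2-deleted) had 69.9, 62.1 and 63.2 CPM. For Ddx3y the values were 0.415 CPM and, in that order, 52.4, 50.3 and 47.0 CPM. Results are therefore also given without that section where the call or the size moves. The sections shared 2041 to 3320 spot barcodes in pairs, all at the same array positions, as slides of one array layout do. A spot covers a small region that can hold several cells, so no cell type is given here.

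RefSeq promoters (GRCm38.p6, 250 bases before to 50 bases after a gene's start) were found for 6 of the 8 genes and searched on both strands for a direct repeat of the nuclear receptor site AGGTCA with 1 base between the copies, the form that PPAR-alpha and RXR bind. The exact repeat, AGGTCA followed by any 1 base and AGGTCA again, was in none of the 6, and 0.0396% of all 32851 promoters hold it. The looser form, with AGGNCA for both copies (N is any base), held by 0.381% of promoters, had 1 match, in Fabp1, read as TGACCTATGGCCT on the plus strand, with the repeat itself on the minus strand, from 67 to 55 bases before the start (chr6:71199812-71199824). A single AGGTCA, which overlaps that match once and which 16.3% of promoters hold, had 2 matches in Fabp1, 1 in Cpt1a and 1 in Acadm. The Cpt1a match (chr19:3323207-3323212) is 94 to 89 bases before the start used for its window. That start lies inside the gene span given above, and so does the match. The 250 bases before the start are shown for the 2 fatty acid-binding proteins, whose transcripts fell the most under CCl4. Both are read 5′ to 3′ on the plus strand, Fabp1 at chr6:71199629-71199878 and Fabp2 at chr3:122894822-122895071, and capitals mark the matches. A match is a description of letters and not evidence of binding, and Fabp2 has none in its window.
Fabp1: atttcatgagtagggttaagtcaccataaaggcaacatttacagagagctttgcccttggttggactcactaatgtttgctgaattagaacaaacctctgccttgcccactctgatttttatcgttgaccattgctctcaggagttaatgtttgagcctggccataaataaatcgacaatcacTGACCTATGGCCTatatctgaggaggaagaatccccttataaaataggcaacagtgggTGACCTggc
Fabp2: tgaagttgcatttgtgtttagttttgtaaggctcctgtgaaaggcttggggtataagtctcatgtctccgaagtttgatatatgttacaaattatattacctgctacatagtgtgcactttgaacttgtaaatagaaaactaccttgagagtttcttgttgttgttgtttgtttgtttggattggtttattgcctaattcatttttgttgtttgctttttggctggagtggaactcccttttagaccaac

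CCl4 against olive oil over whole sections asks how the injury changed the total level of each gene. Transcripts of 3 of the 8 genes were lower by the test, namely both fatty acid-binding proteins and Vnn1, and none was higher. The enzymes of the oxidation spiral and the carnitine gate differed less and did not pass. Over all 14125 genes tested, 4.01% were called lower and 9.64% higher.

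Among the lipid carriers, Fabp1, the liver fatty acid-binding protein that ferries fatty acids through the hepatocyte cytosol, was at 667 CPM in the healthy section (exact Poisson 95% interval 660.1 to 674, which covers counting error only), at 296 and 278 CPM in the fibrotic sections and at 203 CPM in the Hk2-deleted section. The healthy section was the highest and no CCl4 section came near it. The log2 fold change of fibrotic over healthy was -1.55 ± 0.30 (SE), a 2.92-fold lower level (edgeR quasi-likelihood test with Benjamini-Hochberg adjustment over all genes, adjusted p = 0.00167). Fabp2, its relative best known from enterocytes, was at 133 CPM in the healthy section, 49.8 and 41.9 CPM in the fibrotic sections and 39.5 CPM in the Hk2-deleted one. Its change was -1.87 ± 0.21 log2, or 3.65-fold lower (edgeR adjusted p = 3.8e-06), the largest of the 8. Fabp2 UMIs were present in 84.8% of healthy spots, so other genes of an intestinal epithelium list of 9 were checked. Cdx1, Cdx2, Sis, Lct and Alpi did not exceed 0.104 CPM in any section, and Vil1 and Muc2 lay between 0.111 and 0.741 CPM. Lgals4 was at 13.2, 39.6, 27.0 and 31.3 CPM in the healthy, both fibrotic and the Hk2-deleted sections, lowest where Fabp2 was highest. Mttp, which hepatocytes also express, was at 133 to 184 CPM. The part of intestinal RNA in the Fabp2 level was not tested.

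Vnn1, vanin 1, a pantetheinase on the hepatocyte surface that releases the coenzyme A precursor pantothenate and is a classical PPAR-alpha target, was at 55.5 CPM in the healthy section, 37.5 and 32.4 CPM in the fibrotic sections and 37.8 CPM in the Hk2-deleted section. Its change was -1.0 ± 0.19 log2, or 2.00-fold lower (edgeR adjusted p = 0.00134). The 3 CCl4 sections lay close together, all below the healthy one. This call depended on scaling: it was -0.75 log2 (adjusted p = 0.124) when sections were scaled to the hepatocyte list and -0.78 (adjusted p = 0.0696) when every spot weighed the same.

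Of the peroxisomal enzymes, Ehhadh, the bifunctional enzyme that carries out the hydration and the second dehydrogenation, was at 246 CPM with olive oil, 205 and 177 CPM in fibrotic replicates 1 and 2, and 215 CPM with Hk2 deletion (-0.70 ± 0.27 log2, edgeR adjusted p = 0.0885). Acaa1b, the thiolase that closes the peroxisomal cycle, was at 749, 593, 578 and 557 CPM in the same order (-0.69 ± 0.35 log2, adjusted p = 0.216). Both were highest in the healthy section, and DESeq2 on the same sums called both, with adjusted p = 0.0376 and 0.0432. Acaa1a, the copy of Acaa1b, was at 88.8, 81.2, 63.8 and 78.4 CPM.

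The mitochondrial genes were the flattest. Acadm, the medium-chain acyl-CoA dehydrogenase, was at 134, 124, 112 and 122 CPM (-0.51 ± 0.24 log2, edgeR adjusted p = 0.167), and Acaa2, the mitochondrial thiolase of the last step, at 1032, 987, 966 and 918 CPM (-0.41 ± 0.40, adjusted p = 0.543). Cpt1a, the gate of mitochondrial import, was at 164 CPM in the healthy section and at 199.6, 187 and 192 CPM in the CCl4 sections. For Cpt1a alone the healthy section was the lowest on the CPM scale, while the fitted change was -0.10 ± 0.26 (adjusted p = 0.843). That sign turned with the scaling: it was 0.23 with section totals, 0.14 with the hepatocyte list and 0.25 with equal weight per spot. With TMM, the trimmed-mean scaling of the fits unless another is named, the median log2 change of all genes was 0.00. The same median was 0.34 with totals alone, so fitted changes are to be read relative to the bulk of genes. CPM levels are scaled to totals only.

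**Figure D1:**
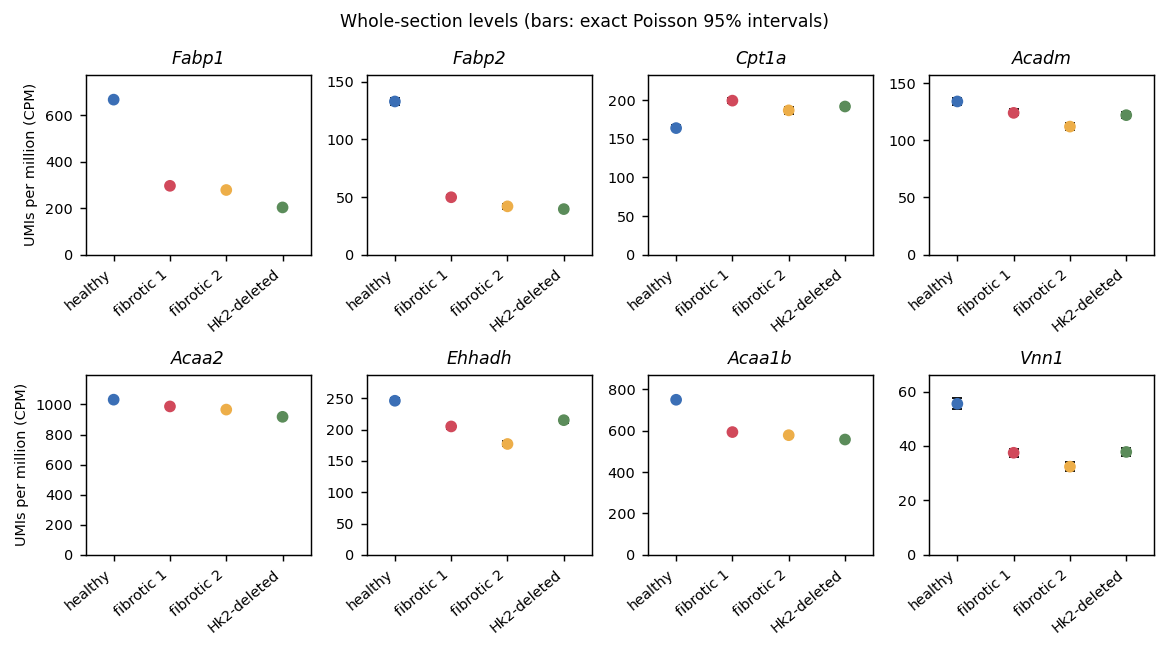
Level of each gene (y axis, UMIs per 1000000) in the 4 sections (x axis), with exact Poisson 95% intervals that cover counting error only. Fabp1, Fabp2 and Vnn1 lie well below the healthy section in all 3 CCl4 sections (Fabp1 667 CPM against 203 to 296), while Acaa2 and Acadm are nearly level and Cpt1a is lowest in the healthy section (164 CPM).

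These tests rest on 1 residual degree of freedom, that of the 2 fibrotic sections, and the lone healthy and Hk2-deleted sections are assumed to vary like them. That pair includes fibrotic replicate 1, the section nearly without Y-linked transcripts, so the spread also holds whatever sets that section apart. With it left out and no section in its place, no residual degree of freedom remained and no test. The same holds for CCl4 against healthy within single zones further on. In sums of this kind, fewer hepatocytes and less RNA per hepatocyte cannot be told apart. Of the 13 hepatocyte markers, 0 were called by edgeR, with a median change of -0.32 log2. Of the neutrophil list 5 of 5 markers rose, and of the stellate and fibroblast list 8 of 11 (median 1.58 log2), whose summed level was 314 CPM healthy and 2253 and 1248 CPM fibrotic. The part of these shifts in the lower levels was not tested. When the Hk2-deleted section and fibrotic replicate 2 stood in for both fibrotic sections, Fabp1 was -1.77 log2 and Fabp2 -2.01, and both stayed called.

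The receptor and its partners did not pass the same test. Ppara was at 159, 167, 151 and 200.5 CPM (healthy, fibrotic replicates 1 and 2, Hk2-deleted; -0.34 ± 0.26 log2, edgeR adjusted p = 0.420). Its partner Rxra was at 255, 271, 319 and 334 CPM (-0.11 ± 0.30, adjusted p = 0.848), and the coactivator Ppargc1a at 6.64, 10.7, 8.08 and 11.1 CPM (0.16 ± 0.23, adjusted p = 0.697). Of 93 listed genes, the 8 left out, of fatty acid uptake, oxidation and PPAR control tested, 6 rose and 10 fell, with a median of -0.38 log2, where all genes had 0.00 and the 8 had -0.69. With section totals these were 12 higher and 9 lower (median -0.05), and with the hepatocyte list 5 and 7 (median -0.13). Those that fell the most were Nudt7, a peroxisomal coenzyme A diphosphatase (1159 CPM healthy, 239 and 514 CPM fibrotic, -1.92 ± 0.42 log2), Acacb, the acetyl-CoA carboxylase whose product inhibits CPT1A (83.1 against 46.8 and 36.9 CPM, -1.33 ± 0.20), the fatty acid omega-hydroxylase Cyp4a14 (-1.28 ± 0.22) and the acyl-CoA thioesterase Acot1 (-1.11 ± 0.19). Those that rose the most were Eci3, Acot3, Ucp2 and Acot4. The rise of Eci3 rested on fibrotic replicate 1 (317 UMIs, 4.70 CPM). In fibrotic replicate 2 it had 6 UMIs (0.148 CPM) and in the healthy section 4 (0.0740 CPM). Acot3, a peroxisomal thioesterase, went from 3.5 CPM to 51.4 and 13.2 CPM (2.83 ± 0.45), and the mitochondrial carrier Ucp2 from 32.0 to 120.1 and 64.0 CPM (1.16 ± 0.27). Called genes of the list thus went in both directions.

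Hk2 deletion was compared with the fibrotic sections to ask whether removing hexokinase 2 from stellate cells changed these genes. None of the 8 was called by edgeR, where 0.142% of all genes were higher and 0.0850% lower, none was under an unadjusted p of 0.05, and DESeq2 called 0 with 1 under an unadjusted p of 0.05. Fabp1 differed the most, at 203 CPM against 296 and 278 (-0.56 ± 0.32 log2, adjusted p = 1.000), so the Hk2-deleted section lay below both fibrotic ones. Ehhadh was at 0.12 ± 0.27, Vnn1 at 0.06 ± 0.20 and Acadm at -0.00 ± 0.24 log2. Of the 93 pathway genes edgeR called 0, with a median of -0.10 log2 against -0.01 over all genes. With a lone deleted section, a change of the size of its SE could not be detected.

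The lobule axis was read from landmark genes. Every spot received a score, the mean within-section standardised log2(CPM + 1) of 9 pericentral landmarks (Cyp2e1, Cyp1a2 and others) minus that of 12 periportal landmarks (Cyp2f2, Cps1 and others), and spots were cut by score into 3 equal zones, called periportal, midlobular and pericentral. None of the 8 genes chose the spots. The summed pericentral landmarks were 3.21-fold higher in the pericentral than in the periportal zone of the healthy section, and 2.69-, 3.52- and 2.69-fold in the CCl4 sections (fibrotic replicates 1 and 2, then Hk2-deleted). Since the score was built from these landmarks, their separation is a description. Single landmarks did differ with CCl4: of the zone by CCl4 terms described further on, 2 of 9 pericentral landmarks were lower, and 3 of 12 periportal ones were higher and 2 lower.

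In the healthy section all 8 genes were higher in the pericentral than in the periportal zone, 3 of them by at least 1.5-fold: Vnn1, Acaa1b and Fabp2. Among 7249 genes with a pooled level of at least 10 CPM, 2.61% were at least 1.5-fold higher pericentrally and 0.993% at least 1.5-fold lower. The median gene was itself higher pericentrally (0.11 log2), so Acaa2 (0.13) and Cpt1a (0.17) lay close to the bulk of genes. This section has no replicate, so these are values with counting intervals and no test. Vnn1 went from 33.9 CPM periportally through 53.1 to 93.7 CPM pericentrally, a ratio of 2.77 (95% interval 2.53 to 3.03). Acaa1b went from 535 through 760.3 to 1085 CPM (ratio 2.03, 1.98 to 2.08), and Fabp2 from 97.8 through 137 to 184 CPM (1.88, 1.77 to 1.99). The rise ran through the whole axis for these genes: over 10 equal bins of spots, Vnn1 went from 26.4 CPM in the most periportal to 116 CPM in the most pericentral bin, Acaa1b from 478 to 1289 and Fabp2 from 80.2 to 199 CPM.

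The other 5 genes had shallower slopes in the healthy section. Ehhadh was at 221, 242 and 292 CPM from the periportal to the pericentral zone (ratio 1.32, 1.27 to 1.38), Acadm at 123, 134 and 151 CPM (1.23, 1.16 to 1.30) and Fabp1 at 614, 678 and 739 CPM (1.20, 1.17 to 1.23). Cpt1a, at 163, 152 and 182 CPM, and Acaa2, at 1014, 992 and 1113 CPM, dipped in the middle zone and peaked in the most pericentral of 10 bins (204 and 1229 CPM). By the authors' deposited table of Moran's I, a score of how alike neighbouring spots are, Acaa2 (0.312, rank 43 of 15352 genes), Acaa1b (0.259, rank 60) and Ehhadh (0.221, rank 79) were the most spatially structured of the 8 in the healthy section. Depth differed as well: these genes had medians of 3.0 to 15.0 UMIs per spot, against 1.0 for Vnn1 (Moran's I 0.057).

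**Figure D2:**
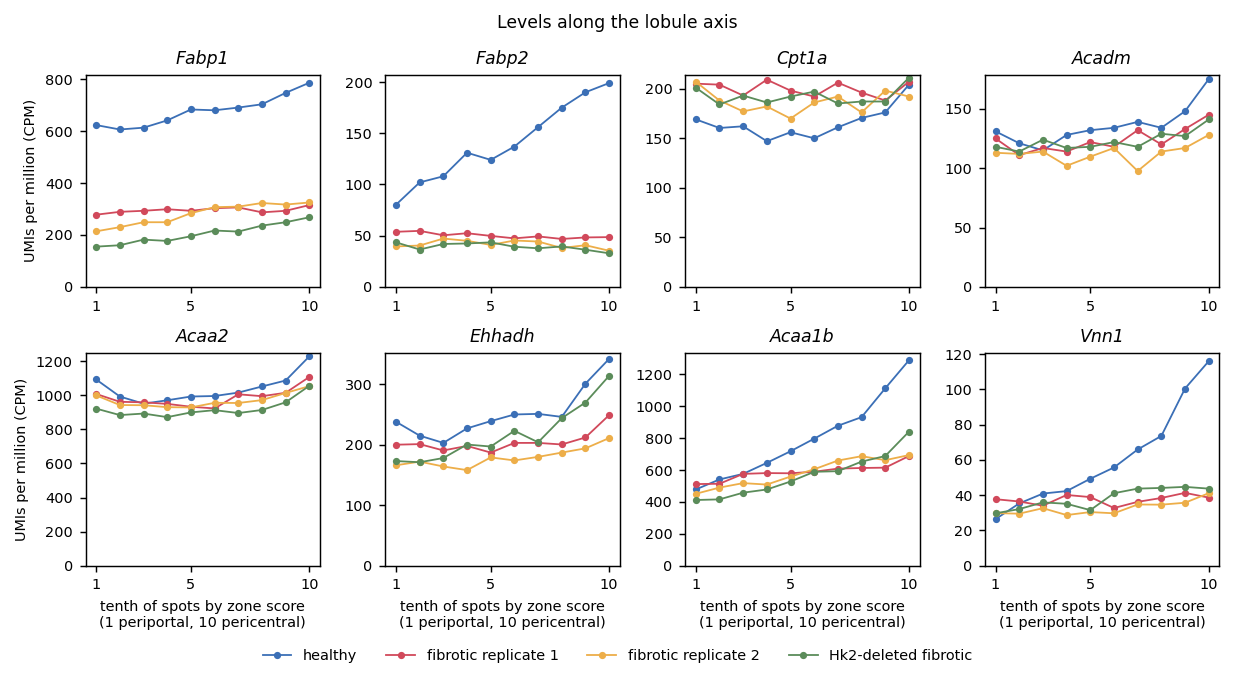
Level of each gene (y axis, UMIs per 1000000) in 10 equal bins of spots ordered by zone score (x axis, 1 most periportal, 10 most pericentral), with 1 line per section. In the healthy section Fabp2, Acaa1b and Vnn1 climb toward the central vein (Vnn1 from 26.4 to 116 CPM). In the CCl4 sections Fabp2 does not climb (43.5 to 32.8 CPM with Hk2 deletion), and Vnn1 and Acaa1b climb less.

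After CCl4 the pericentral rise of Fabp2 was not seen, and those of Vnn1 and Acaa1b were shallower. Fabp2 was at 51.9, 49.7 and 48.4 CPM from the periportal to the pericentral zone of fibrotic replicate 1, at 42.5, 44.1 and 38.7 CPM in fibrotic replicate 2 and at 40.5, 40.5 and 37.2 CPM in the Hk2-deleted section. Vnn1 was at 36.7, 36.4 and 39.1 CPM, at 30.3, 30.8 and 36.7 CPM, and at 32.8, 37.1 and 44.6 CPM in the same sections. Fabp2 thus had a pericentral over periportal ratio of 0.910 to 0.933 in the CCl4 sections against 1.88 in the healthy one, and Vnn1 of 1.07 to 1.36 against 2.77. Acaa1b had ratios of 1.17, 1.38 and 1.64 in fibrotic replicates 1 and 2 and with Hk2 deletion, against 2.03. In fibrotic replicate 1 its slope was that of the median gene (0.23 against 0.22 log2), and in fibrotic replicate 2 and with Hk2 deletion it was steeper (0.47 against 0.20 and 0.71 against 0.17 log2).

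The zone by CCl4 term tested this difference of gradients directly, with section as a block. It was lower for 5 of the 8 genes, where 9.98% of 12677 genes were called lower and 7.99% higher. Vnn1 had -1.33 ± 0.13 log2 (edgeR adjusted p = 0.000111), Fabp2 -1.16 ± 0.08 (adjusted p = 7.1e-05) and Acaa1b -0.68 ± 0.15 (adjusted p = 0.00779). All 12 alternatives kept these 3 calls, from -1.65 to -1.11 for Vnn1, from -1.41 to -0.94 for Fabp2 and from -0.82 to -0.46 for Acaa1b. Cpt1a (-0.30 ± 0.09, adjusted p = 0.0332) and Acadm (-0.30 ± 0.09, adjusted p = 0.0417) passed too, but scaled to the hepatocyte list both were -0.08, with adjusted p of 0.563 and 0.597. Without fibrotic replicate 1 Cpt1a was -0.28 (adjusted p = 0.0602), and without fibrotic replicate 2 Acadm was -0.25 (adjusted p = 0.0573). Ehhadh (-0.20 ± 0.15), Acaa2 (-0.18 ± 0.09) and Fabp1 (-0.04 ± 0.15) did not pass. For Ehhadh the CCl4 sections lay on both sides of the healthy ratio of 1.32. Its ratio was 1.11 and 1.18 in fibrotic replicates 1 and 2 and 1.53 with Hk2 deletion. Over the 12 alternatives its term ran from -0.36 to 0.02, and 1 of them called it lower. Markers of cell types moved with the same term: 5 of 13 hepatocyte markers were lower (median -0.28, where the 8 genes had -0.30), and 9 of 11 stellate and fibroblast (median 1.31), 4 of 6 cholangiocyte and 4 of 8 macrophage markers were higher. Their part in the result was not tested.

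Fabp1 differed from Fabp2 in this respect. Both were lower after CCl4, but the slope of Fabp1 did not change by the test. Its pericentral over periportal ratio was 1.20 in the healthy section and 1.04, 1.38 and 1.49 in the CCl4 sections, where it went from 231 to 319.7 CPM in fibrotic replicate 2 and from 166 to 247 CPM in the Hk2-deleted section. The healthy slope lay within the range of the CCl4 slopes.

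Of the pathway list, 91 genes were tested for the same term: 47 had a lower and 7 a higher pericentral excess after CCl4, with a median of -0.30 log2 against 0.01 over all genes. The hepatocyte scaling left 14 lower and totals alone 24. Of all 12677 genes, 321 were lower and 2476 higher with the hepatocyte scaling, and 547 and 1630 with totals alone. The 13 hepatocyte markers had a median of -0.28 log2 for this term. The largest decreases were G0s2, an inhibitor of triglyceride lipase (-1.22 ± 0.13), the nuclear receptor Pparg (-1.08 ± 0.15), the fatty acid transporter Cd36 (-0.95 ± 0.09) and Cyp4a10 (-0.80 ± 0.25). Ppara itself (-0.44 ± 0.09, edgeR adjusted p = 0.00523) and Rxra (-0.38 ± 0.10, adjusted p = 0.0155) were also lower, as was Acaa1a (-0.48 ± 0.10). Fgf21, a hormone under PPAR-alpha control, had the largest increase (3.35 ± 0.67) at a low level of 0.788 to 1.64 CPM, followed by Ucp2 (0.93 ± 0.13).

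Within the CCl4 sections alone, the pericentral zone was lower than the periportal for 4 of the 8 genes and higher for 1, against 21.7% lower and 20.5% higher over 12832 genes. Fabp2 had -0.37 ± 0.05 log2, Cpt1a -0.25 ± 0.04, Acaa2 -0.16 ± 0.05 and Acadm -0.12 ± 0.04, and Acaa1b had 0.22 ± 0.07, a call lost with DESeq2 (adjusted p = 0.327) and without the Hk2-deleted section (0.09, adjusted p = 0.368). Of 12 alternatives, 10 kept the calls of Fabp2, Cpt1a and Acaa1b, 6 that of Acaa2 and 2 that of Acadm. Without fibrotic replicate 1 Acaa2 was -0.15 (adjusted p = 0.114) and Acadm -0.14 (adjusted p = 0.0642), and without fibrotic replicate 2 they were -0.13 (adjusted p = 0.0615) and -0.07 (adjusted p = 0.290). Without the Hk2-deleted section Acadm was -0.14 (adjusted p = 0.0930). In the same contrast 12 of 13 hepatocyte markers were lower (median -0.39) and 9 of 11 stellate and fibroblast markers higher (median 1.26), and their part in it was not tested. These directions turned with the scaling: totals alone gave 5 higher and 0 lower, and the hepatocyte list 7 higher and 0 lower, as the median of all genes moved to 0.25 and 0.40 log2. Of all 12832 genes, 7336 were higher and 805 lower with totals alone, and 10108 and 391 with the hepatocyte list. On the plain CPM scale the pericentral zone was the higher for Acaa2 in all 3 sections (1037 against 973, 1003 against 955 and 968 against 896 CPM).

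Compared zone by zone, the CCl4 decrease was deeper toward the central vein for Fabp2, Vnn1 and Acaa1b. In the pericentral zone 5 of 8 genes were lower, against 5.31% of 13163 genes lower and 11.7% higher: Fabp2 at -2.45 ± 0.18 log2 (edgeR adjusted p = 0.00155), Vnn1 at -1.67 ± 0.17 (adjusted p = 0.00252), Fabp1 at -1.61 ± 0.25 (adjusted p = 0.00798), Acaa1b at -1.09 ± 0.28 (adjusted p = 0.0391) and Ehhadh at -0.86 ± 0.21 (adjusted p = 0.0354). Acadm was -0.65 ± 0.19 (adjusted p = 0.0605), Acaa2 -0.49 ± 0.29 and Cpt1a -0.29 ± 0.21. In the same zone 9 of 11 stellate and fibroblast markers (median 2.49), 7 of 8 macrophage and 5 of 5 neutrophil markers were higher, and 0 of 13 hepatocyte markers were called by edgeR (median -0.43). Their part in the lower levels was not tested. In the midlobular zone 3 of 8 were lower, against 2.54% of genes lower and 6.60% higher: Fabp2 at -1.83 ± 0.20, Fabp1 at -1.48 ± 0.29 and Vnn1 at -0.95 ± 0.19, a call lost with DESeq2 (adjusted p = 0.0531) and with the hepatocyte scaling (adjusted p = 0.125). In the periportal zone 2 of 8 were lower, against 1.20% lower and 1.80% higher: Fabp1 at -1.47 ± 0.25 and Fabp2 at -1.28 ± 0.19, while Vnn1 was -0.25 ± 0.18 (adjusted p = 0.528).

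Vnn1 reached 93.7 CPM pericentrally in the healthy section and 39.1 and 36.7 CPM in the fibrotic ones, but periportally the levels were 33.9 against 36.7 and 30.3 CPM. Acaa1b was at 1085 against 635 and 674 CPM pericentrally and at 535 against 541 and 487 CPM periportally. In the periportal zone, the healthy level of both genes therefore lay between those of the fibrotic sections. Fabp1 was apart from them, at 614 against 288 and 231 CPM even there. The zones differ in depth between sections: the periportal zone held 42.0% of the UMIs of the healthy section and 27.5% of those of fibrotic replicate 1. The call of Ehhadh was lost with the hepatocyte scaling (-0.54, adjusted p = 0.0669) and with the Hk2-deleted section put in place of fibrotic replicate 1 (-0.69, adjusted p = 0.0533). The median over the 8 genes was -0.98, -0.66 and -0.31 log2 in the pericentral, midlobular and periportal zones, and that of the 93 pathway genes -0.49, -0.30 and -0.23, against 0.00 to 0.01 over all genes.

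**Figure D3:**
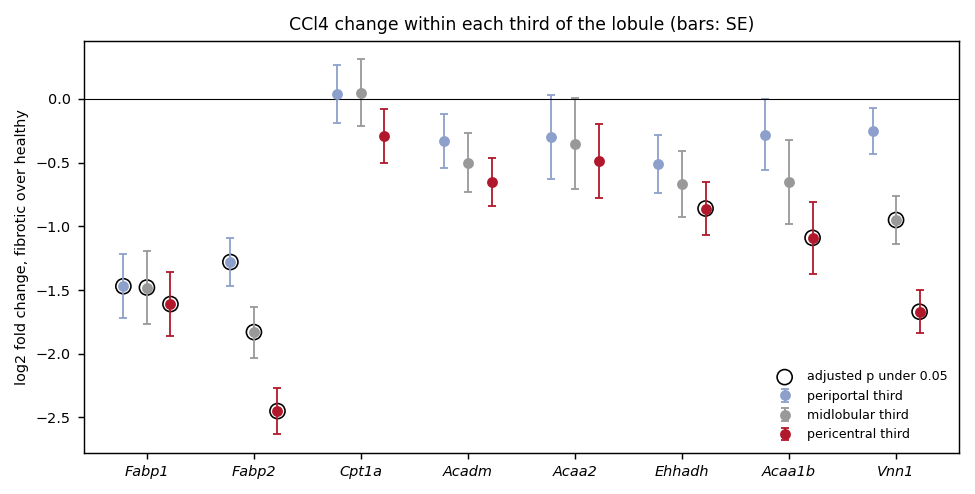
Log2 fold change of the fibrotic over the healthy section (y axis, bars are SE) for each gene (x axis) in the periportal, midlobular and pericentral zone; black rings mark an adjusted p under 0.05. Fabp2, Acaa1b and Vnn1 step down toward the pericentral zone (Vnn1 -0.25, -0.95 and -1.67), while Fabp1 is about equally low in all 3 (-1.47, -1.48 and -1.61).

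Patterns over the 12 sums of 4 sections by 3 zones were compared with those of 8059 other genes at 10 CPM or more, by Pearson's r of log2(CPM + 1). These sums share sections and landmarks, so r describes likeness only. Closest to Fabp2 were Car3 (r = 0.988), Pcyt2 (0.978) and Acox2 (0.969), the last an enzyme of peroxisomal side-chain oxidation. Closest to Vnn1 were Decr2, a peroxisomal reductase of unsaturated fatty acids (0.955), the peroxisome assembly gene Pex16 (0.940) and Bco2 (0.937). Fabp1 was closest to Maff (0.986), Sc5d (0.979) and Cct6a (0.976), Acaa1b to Abhd6 (0.964), Gstm6 (0.960) and 4931406C07Rik (0.960), and Ehhadh to Cyp4a14 (0.956), Vcp (0.955) and Rrp8 (0.941). The mitochondrial genes had Lonp2 (0.947), Prps1l3 (0.943) and Psmc1 (0.942) beside Acaa2, Agfg2 (0.971), Vcp (0.960) and Ubr3 (0.953) beside Acadm, and Cox7c (0.954), Fbxl8 (0.951) and 1600014C10Rik (0.947) beside Cpt1a. The 8 genes themselves and the landmarks were left out of this ranking. Across single spots the 28 pairs of the 8 genes had r of 0.01 to 0.47 within sections, with section medians of 0.06 to 0.11; the highest was Acaa1b with Acaa2 in fibrotic replicate 1.

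Collagen-rich spots were the 10% of each section's spots in which Col1a1, Col1a2 and Col3a1, the fibrillar collagens of scar, took up the largest share of the spot's UMIs. In the 3 CCl4 sections, between 69.69% and 79.38% of them lay in the pericentral zone, against 40.2% in the healthy section. All 8 genes were present in them. Fabp1 was at 275 CPM in collagen-rich against 299 CPM in other spots of fibrotic replicate 1, at 299 against 276 CPM in fibrotic replicate 2 and at 239.7 against 199 CPM in the Hk2-deleted section. Fabp2 was at 50.7 against 49.7, 37.2 against 42.3 and 33.7 against 40.1 CPM, and Cpt1a at 199.5 against 199.6, 159 against 189 and 204 against 191 CPM. Fabp1 and Cpt1a were thus higher in collagen-rich spots in some sections and lower in others.

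With TMM scaling and section as a block, 7 of the 8 genes were lower in collagen-rich spots, where 22.2% of 13167 genes were lower and 21.9% higher. Fabp2 had -0.43 ± 0.08 log2 (edgeR adjusted p = 0.000442), Cpt1a -0.36 ± 0.07 (adjusted p = 0.000482), Acaa2 -0.26 ± 0.06, Acadm -0.26 ± 0.06, Fabp1 -0.23 ± 0.07, Vnn1 -0.23 ± 0.07 and Acaa1b -0.22 ± 0.08, and Ehhadh -0.16 ± 0.07 (adjusted p = 0.0822) did not pass. The direction depended on the scaling. With the totals of the sums alone edgeR called 0 of 8 and 0 were under an unadjusted p of 0.05, with values from -0.12 to 0.15, and DESeq2 with its own size factors called 6 lower. Scaled to the hepatocyte list, 7 of 8 were higher, from 0.23 for Cpt1a to 0.43 for Ehhadh, and Fabp2 at 0.15 did not pass. Under that scaling 10990 of all 13167 genes were higher and 138 lower. The median of all genes was 0.01, 0.33 and 0.60 log2 under these 3 scalings. Without fibrotic replicate 1, 4 of 8 were lower.

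The hepatocyte markers fell further in the same spots, 13 of 13 with a median of -0.62 log2 and a summed level 0.812 to 0.845 times that of other spots, and the stellate and fibroblast markers rose, 11 of 11 with a median of 1.39. Relative to the hepatocyte list, then, transcripts of 7 of the 8 genes were higher in collagen-rich spots, but so were 10990 of all 13167 genes. All 8 lay below the median of all genes on that scale (0.60 log2). Relative to the bulk of genes 7 were lower. Of the 92 pathway genes 62 fell and 10 rose with TMM (median -0.28), and 1 fell and 76 rose with the hepatocyte list. Slc27a5, the liver's bile acid and fatty acid CoA ligase, had the clearest decrease (-0.81 ± 0.06) and Ppara had -0.45 ± 0.06, while Acot2 (0.62 ± 0.13), Pdk4, the kinase that diverts pyruvate from oxidation (0.57 ± 0.13), and Ucp2 (0.54 ± 0.06) were higher. The part of fewer hepatocytes in these spots was not tested beyond that scaling.

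**Figure D4:**
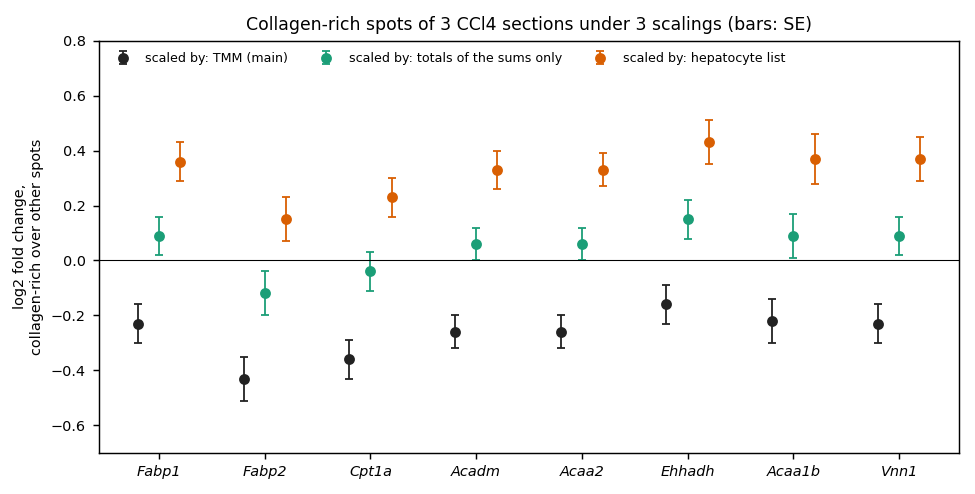
Log2 fold change of collagen-rich over other spots in the 3 CCl4 sections (y axis, bars are SE) for each gene (x axis) under 3 scalings. All 8 genes lie below 0 with TMM (-0.43 to -0.16), around 0 with totals alone (-0.12 to 0.15) and above 0 with the hepatocyte list (0.15 to 0.43). The median of all genes is 0.01, 0.33 and 0.60 log2 under these scalings.

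In the healthy section Ehhadh was at 201 CPM in them against 249.9 CPM in other spots (ratio 0.804, 95% interval 0.751 to 0.859). Acaa1b was at 705 against 753 CPM (0.936, 0.903 to 0.970). Acaa2 (0.924, 0.896 to 0.953), Acadm (0.900, 0.825 to 0.981) and Fabp1 (0.956, 0.921 to 0.993) were below 1 too. Fabp2, Vnn1 and Cpt1a had intervals that span 1 (0.910 to 1.08, 0.908 to 1.17 and 0.924 to 1.07). The median gene was at 0.06 log2 in this contrast.

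By edgeR the Hk2-deleted section differed from the fibrotic ones in collagen-rich against other spots for 2 of the 8 genes, both peroxisomal enzymes. In collagen-rich spots of the deleted section Acaa1b was at 712 against 540.1 CPM elsewhere and Ehhadh at 276 against 208 CPM. The fibrotic sections had 557 against 597 and 568 against 579 CPM for Acaa1b and 215 against 204 and 172 against 178 CPM for Ehhadh. On this scale the median gene of the Hk2-deleted section was also higher in collagen-rich spots (0.25 log2). Acaa1b was at 0.40 and Ehhadh at 0.41 log2. There the ratios of Fabp1 and Acaa2 were 1.21 and 1.14, but their terms did not pass. In fibrotic replicates 1 and 2 these ratios were 0.920 and 1.08 for Fabp1 and 1.01 and 0.978 for Acaa2. The term of spot kind by Hk2 deletion was 0.42 ± 0.11 log2 for Acaa1b (edgeR adjusted p = 0.0140) and 0.35 ± 0.10 for Ehhadh (adjusted p = 0.0345), and none of the 8 was lower, where 1.09% of genes were higher and 0.175% lower. Of 92 pathway genes 5 were higher, among them Acot1 (0.77 ± 0.19), Acot3 (0.75 ± 0.16), Cyp4a10 (0.58 ± 0.12) and Acaa1a (0.43 ± 0.11), but edgeR called 0 of them with the top 5% of spots and 0 without surface spots, and DESeq2 called 0.

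These terms rest on 1 deleted section and 1 residual degree of freedom, and they were not kept by all alternatives. DESeq2 gave 0.43 (adjusted p = 0.523) for Acaa1b and 0.36 (adjusted p = 1.000) for Ehhadh. A spot was counted as surface where it or a neighbour held a UMI of the mesothelial genes Msln or Upk3b, and 66.06% of collagen-rich spots were such with Hk2 deletion and 49.15% and 2.335% without it. With the top 5% of spots as collagen-rich the terms were 0.42 (adjusted p = 0.284) and 0.33 (adjusted p = 0.574). Without surface spots they were 0.26 (adjusted p = 0.720) and 0.22 (adjusted p = 0.829). Markers of other cells moved too: 7 of 11 stellate and fibroblast and 5 of 5 neutrophil markers were higher for the same term, and 0 of 13 hepatocyte markers. Zone was mixed into the term as well, since 69.69% of collagen-rich spots of the deleted section were pericentral. In that section the pericentral over periportal ratio was 1.64 for Acaa1b and 1.53 for Ehhadh. In fibrotic replicates 1 and 2 it was 1.17 and 1.38 for Acaa1b and 1.11 and 1.18 for Ehhadh. With pericentral spots alone, fewer of the 8 genes were called higher. The part of zone and of other cells in the term was not tested further.

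In the CCl4 sections, levels differed little with TMM between spots next to collagen-rich spots and distant ones. Spots touching a collagen-rich spot were compared with spots 3 or more steps away on the array, and edgeR called none of the 8 genes (2 under an unadjusted p of 0.05, DESeq2 0 called and 1 under it), where 7.21% of 12725 genes were higher and 6.95% lower. Cpt1a had -0.12 ± 0.04 log2 (adjusted p = 0.0554), Acadm -0.11 ± 0.05 and Acaa1b 0.05 ± 0.04. Scaled to the hepatocyte list 5 were higher, and with totals alone Acaa1b (0.16) and Fabp1 (0.14) were. Of all 12725 genes, 5265 were higher with the hepatocyte list and 2416 with totals alone. The ring was more pericentral: 41.55%, 49.56% and 42.42% of its spots (fibrotic replicates 1 and 2, Hk2-deleted), against 21.08%, 17.03% and 25.82% of distant spots. Surface spots made up 42.31%, 2.5% and 50.51% of the ring and 21.29%, 2.061% and 14.78% of distant spots. Without surface spots 3 of the 8 were called lower. In the ring 12 of 13 hepatocyte markers were lower (median -0.18 log2). The part of zone, surface and cell types was not tested further. In fibrotic replicate 1 Acaa1b was at 557, 609.7, 596, 588 and 583 CPM at 0, 1, 2, 3 to 4 and 5 or more steps. In the Hk2-deleted section it was at 712, 631, 513, 491 and 545 CPM, and Ehhadh at 276, 239.6, 203, 182 and 215 CPM, so that both were highest in collagen-rich spots and lowest at 3 to 4 steps. The healthy section ran the other way, with Acaa1b at 705 CPM in collagen-rich spots and 1011 CPM at 5 or more steps.

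**Figure D5:**
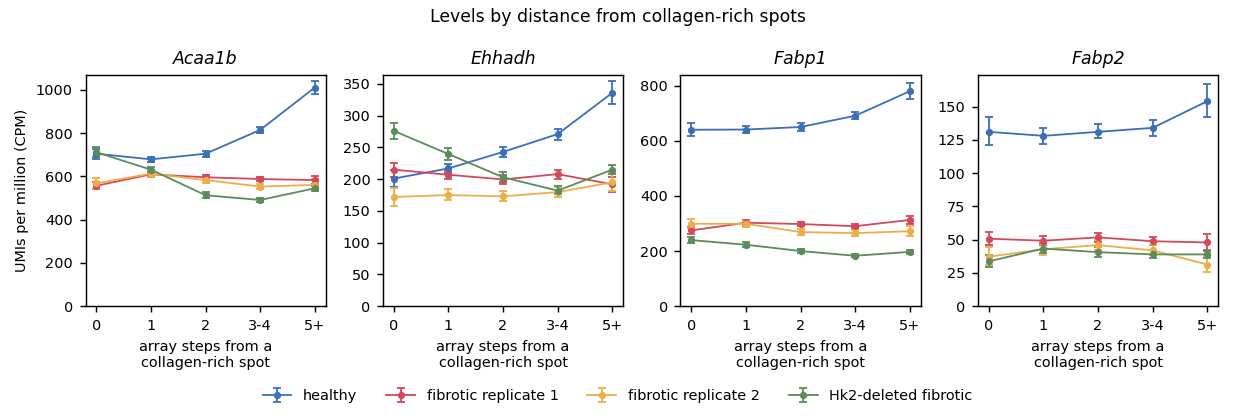
Level (y axis, UMIs per 1000000, exact Poisson 95% intervals) of Acaa1b, Ehhadh, Fabp1 and Fabp2 by array steps from the nearest collagen-rich spot (x axis), with 1 line per section. In the Hk2-deleted section Acaa1b falls from 712 to 491 CPM over the first steps, the fibrotic sections are nearly flat and the healthy section climbs to 1011 CPM.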

How the data were processed

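The deposited UMI counts per gene and spot were made by the authors with Space Ranger 2.0.0, per the file headers, on mm10 (submitters' processing notes); which probes were used is not given in the sources used here. Spot positions were used as deposited (row and column on the array, other than counts). Moran's I is the authors' deposited score.

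Counts were summed per section, zone or spot kind and tested with edgeR 4.0.16 (R 4.3.3; filterByExpr, TMM, quasi-likelihood, Benjamini-Hochberg over all genes tested, threshold 0.05), with section as a block for comparisons within sections; SE is the log2 change over the square root of F. DESeq2 1.42.0 and other scalings were alternatives. The scripts were tested on simulated data. Levels were not compared between genes, since the number of probes per gene is unknown.

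The members and lists were chosen with earlier results of these data known. Named genes were the 8 members, Ppara, Rxra, Ppargc1a, Acaa1a, up to 4 called pathway genes in each direction per comparison, and the 3 genes most like each member.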

Additional observations from a re-analysis of the deposited data

Results flagged for a closer look

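The difference between the pericentral and periportal zone was not the same with and without CCl4 by the test of that difference (edgeR) for 5 genes: Vnn1 (-1.33 log2), Fabp2 (-1.16), Acaa1b (-0.68), Cpt1a (-0.30) and Acadm (-0.30). All 12 alternatives kept the calls of Vnn1, Fabp2 and Acaa1b, 7 that of Cpt1a and 5 that of Acadm. The difference between collagen-rich and other spots was not the same with and without Hk2 deletion by edgeR for 2 genes, Acaa1b (0.42 log2) and Ehhadh (0.35). Of 8 alternatives with a test, 5 kept the call of Acaa1b and 3 that of Ehhadh. Neither was called by DESeq2, with the top 5% of spots or without surface spots. The lone healthy section stands behind the first set of terms and the lone Hk2-deleted section behind the second.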

How the results depend on the processing

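Of 824 values of the 8 genes under alternatives, 677 were counted as the same, 50 kept the direction but lost the call, 30 gained it and 63 turned sign. A further 4 had no residual degree of freedom and moved by more than the SE of the fit in use. Same means that direction and side of the threshold were kept. Fits without a residual degree of freedom have no test, and there it means a move of at most that SE. In such fits a turned sign was counted only for genes called in the fit in use. The scaling by totals for the zones, and the removal of collagen-rich spots or the exchange of fibrotic replicate 1 for the Hk2-deleted section in the zones, were chosen after seeing the data. The cause of the changes below was not tested. Groups could not be compared in pairs, since each section came from its own mouse. Only zones and spot kinds were compared within sections, with section as a block. Depth limits little here, since the members' counting intervals are narrow; the number of sections limits the tests.

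For CCl4 over whole sections DESeq2 called 5 members lower. For the pericentral against the periportal zone in CCl4 sections, members called higher were 0 with DESeq2, 7 with the hepatocyte list, 5 with totals only and 0 to 3 with a section left out. Members called lower there were 0 with the hepatocyte list, 0 with totals, 2 with only Cyp2e1 and Cyp2f2 as landmarks, 2 without collagen-rich spots and 2 to 3 with a section left out. For the zone by CCl4 term 3 were lower with DESeq2, 3 with the hepatocyte list, 3 with totals and 3 without collagen-rich spots. For collagen-rich spots 0 were lower with totals, 0 lower and 7 higher with the hepatocyte list, and 4 lower without fibrotic replicate 1. For the Hk2 deletion term in collagen-rich spots 0 were higher with DESeq2, 0 with the top 5% of spots, 0 without surface spots, 1 without the low-count filter and 1 in the pericentral zone only. For the ring 2 were higher with totals and 5 with the hepatocyte list, and 1 was lower without the filter, 2 with the top 20% and 3 without surface spots.

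In fits with a residual degree of freedom, signs turned as follows (log2). With the setting collagen-rich 20%, for collagen-rich by Hk2 deletion Vnn1 was 0.05. For the ring Acaa1b was -0.01 and Fabp2 0.01. With the setting collagen-rich 5%, for collagen-rich by Hk2 deletion Acadm was -0.06. For the ring Ehhadh was 0.03. With the setting equal weight per spot, for CCl4 over whole sections Cpt1a was 0.25. For Hk2 deletion Acadm was 0.05. With the setting fibrotic replicate 2 and the Hk2-deleted section, for CCl4 in the periportal zone Cpt1a was -0.01. With the setting pericentral zone only, for the ring Acaa1b was -0.06 and Fabp2 0.04. With the setting scaled to the hepatocyte list, for CCl4 over whole sections Cpt1a was 0.14. For Hk2 deletion Acadm was 0.05. For the pericentral against periportal contrast in CCl4 sections Acaa2 was 0.24, Cpt1a 0.15, Acadm 0.28 and Fabp2 0.04. For zone by CCl4 Acaa2 was 0.04, Ehhadh 0.02 and Fabp1 0.18. For CCl4 in the pericentral zone Cpt1a was 0.03. For collagen-rich spots Acaa1b was 0.37, Acaa2 0.33, Cpt1a 0.23, Ehhadh 0.43, Acadm 0.33, Fabp1 0.36, Fabp2 0.15 and Vnn1 0.37. For collagen-rich by Hk2 deletion Vnn1 was 0.11. For the ring Acaa2 was 0.12, Cpt1a 0.06, Ehhadh 0.15, Acadm 0.07, Fabp2 0.16 and Vnn1 0.12. With the setting section totals only, for CCl4 over whole sections Cpt1a was 0.23. For Hk2 deletion Acadm was 0.05. With the setting totals only, for the pericentral against periportal contrast in CCl4 sections Acaa2 was 0.09 and Acadm 0.13. For zone by CCl4 Fabp1 was 0.10. For CCl4 in the pericentral zone Cpt1a was 0.08. For collagen-rich spots Acaa1b was 0.09, Acaa2 0.06, Ehhadh 0.15, Acadm 0.06, Fabp1 0.09 and Vnn1 0.09. For collagen-rich by Hk2 deletion Vnn1 was 0.04. For the ring Acaa2 was 0.05, Ehhadh 0.08, Fabp2 0.09 and Vnn1 0.05. With the setting without surface spots, for collagen-rich by Hk2 deletion Fabp2 was 0.10 and Vnn1 0.03. For the ring Fabp1 was -0.02. With the setting without the collagen-rich spots, for zone by CCl4 Fabp1 was 0.03.

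With a section left out, Ehhadh in pericentral against periportal zone ran from -0.07 to 0.19, Vnn1 in pericentral against periportal zone ran from -0.09 to 0.14, Fabp1 in zone by CCl4 term ran from -0.16 to 0.13, Fabp2 in ring next to collagen-rich spots against distant spots ran from -0.05 to 0.02, Ehhadh in ring next to collagen-rich spots against distant spots ran from -0.13 to 0.04, Acaa1b in ring next to collagen-rich spots against distant spots ran from -0.01 to 0.10, and Fabp1 there from -0.01 to 0.08. With 1 fibrotic section left out the collagen-rich by Hk2 deletion term has no test: Acaa1b was 0.40 and 0.41, Ehhadh 0.43 and 0.24, Cpt1a 0.31 and 0.01 and Fabp1 0.12 and 0.30 without fibrotic replicate 1 and without fibrotic replicate 2.

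Counts of all genes called higher and lower that differed by over 1.5 times from the values in use are given in that order. For CCl4 over whole sections these were 1362 and 567, and 729 and 295 (DESeq2), 1877 and 206 (section totals only), 689 and 142 (scaled to the hepatocyte list), 1079 and 95 (equal weight per spot). For Hk2 deletion these were 20 and 12, and 11 and 10 (DESeq2), 63 and 50 (section totals only), 38 and 26 (scaled to the hepatocyte list), 69 and 57 (no filter), 4 and 1 (without the collagen-rich spots), 0 and 0 (equal weight per spot). For the pericentral against periportal contrast in CCl4 sections these were 2634 and 2781, and 1423 and 1624 (DESeq2), 10108 and 391 (scaled to the hepatocyte list), 7336 and 805 (totals only). For zone by CCl4 these were 1013 and 1265, and 366 and 482 (DESeq2), 2476 and 321 (scaled to the hepatocyte list), 730 and 799 (without the collagen-rich spots), 1630 and 547 (totals only). For CCl4 in the pericentral zone these were 1540 and 699, and 878 and 448 (DESeq2), 1907 and 264 (scaled to the hepatocyte list), 2283 and 1385 (no filter), 3221 and 347 (totals only), 1938 and 1274 (fibrotic replicate 2 and the Hk2-deleted section). For CCl4 in the midlobular zone these were 869 and 334, and 301 and 114 (DESeq2), 524 and 145 (scaled to the hepatocyte list), 1278 and 552 (no filter), 1455 and 205 (totals only). For CCl4 in the periportal zone these were 234 and 157, and 144 and 93 (DESeq2), 364 and 193 (scaled to the hepatocyte list), 634 and 426 (no filter), 408 and 264 (Cyp2e1 and Cyp2f2 only), 555 and 134 (totals only), 395 and 247 (without the collagen-rich spots), 342 and 264 (fibrotic replicate 2 and the Hk2-deleted section). For collagen-rich spots these were 2890 and 2920, and 1884 and 2229 (DESeq2), 7284 and 682 (totals only), 10990 and 138 (scaled to the hepatocyte list). For collagen-rich by Hk2 deletion these were 144 and 23, and 3 and 2 (DESeq2), 184 and 11 (totals only), 359 and 9 (scaled to the hepatocyte list), 38 and 3 (collagen-rich 5%), 116 and 14 (collagen-rich 20%), 21 and 6 (without surface spots), 172 and 86 (pericentral zone only). For the ring these were 918 and 884, and 243 and 354 (DESeq2), 2416 and 232 (totals only), 5265 and 119 (scaled to the hepatocyte list), 572 and 641 (collagen-rich 20%), 105 and 147 (pericentral zone only), 719 and 501 (without fibrotic replicate 1), 580 and 564 (without fibrotic Hk2-deleted section).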

Other observations

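The fibrotic sections differed from each other in some pathway genes. Eci3, a peroxisomal enoyl-CoA isomerase, was at 4.70 CPM in fibrotic replicate 1 and 0.148 CPM in fibrotic replicate 2, with 0.0740 CPM in the healthy and 0.537 CPM in the Hk2-deleted section. Acot3 was at 51.4 and 13.2 CPM in the fibrotic sections and 24.5 CPM in the Hk2-deleted one. Cyp4a10, a fatty acid omega-hydroxylase, was at 103 and 64.3 CPM in the fibrotic sections, 55.9 CPM in the Hk2-deleted and 47.8 CPM in the healthy section. Fibrotic replicate 1, the section nearly without Y-linked transcripts, had the highest level of all 3. Whether the mouse's sex had a part in these levels was not tested.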
